A study of Homo sapiens with 3 samples.

Results

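Cytosolic ribosomal proteins are the protein subunits of the ribosomes that translate messenger RNA outside mitochondria. Their genes were taken by name, as RPL or RPS with a number and at most 1 letter A, X or L, together with RPSA, RPLP0, RPLP1 and RPLP2. Of 81 genes that this rule could name, 80 had a probe here, and none of the probes could be matched to RPSA. The 80 genes were measured by 159 of the 58201 probes, and 25006 genes were named on the array in all. Each gene is given by its brightest probe, and for all 80 the scanner software marked both channels as well above background on each array.

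RNA of U87WT 5 and U87Mut 5 cells was compared on 3 two-color Agilent arrays, with U87WT in the Cy5 channel and U87Mut in the Cy3 channel of each. Both are single clones of U87, a human glioblastoma cell line, stably transfected and selected. U87WT 5 carries GFP-IGF1R, a green fluorescent protein fused to the type 1 insulin-like growth factor receptor, which reaches the nucleus. U87Mut 5 carries GFP-IGF1R1025x-1100x-1120x, which is labelled as not nuclear. One array held cells kept in FBS-free medium (24 h), another cells with IGF1 (50 nM, 24 h) and another cells with IGF1 (50 nM, 24 h) and OSI906, a kinase inhibitor of IGF1R and the insulin receptor. The labels give OSI906 as 0.5 µM in the sample name and as 500 µM in the medium. The study's methods give 0.5 µM. OSI906 was given before IGF1, for 24 h by the labels and for 1 h by the study's methods. Each condition had 1 array, and every array had the same dye orientation, so a dye effect of a probe and a difference between the clones cannot be told apart. Values are log2 ratios of U87WT over U87Mut, so a value above 0 means more RNA signal in U87WT. All 7 markers of a mesenchymal glioma line (VIM, CD44, NES, CHI3L1, FN1, SPARC and TNC) were well above background. So were 2 of 4 markers of other cell types (PTPRC, EPCAM, PECAM1 and ALB). These 4 were dim, at or below 6.84 on a brightness scale where the middle ribosomal protein gene lay at 15.4. The 7 glioma markers had a median of 10.6, but NES, at 6.90, was about as dim as the brightest of the 4. Brightness is the mean log2 intensity of both channels over the arrays.

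The small 40S subunit reads the messenger RNA and the large 60S subunit forms the peptide bond. The stalk of the large subunit, made of RPLP0, RPLP1 and RPLP2, recruits translation factors. Most ribosomal protein mRNAs begin with a 5′ terminal oligopyrimidine (TOP) tract, through which mTORC1, a kinase complex downstream of IGF1R and AKT, controls their translation by way of LARP1 and the 4E-BP proteins. An array reads the amount of mRNA, not its translation.

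The TOP tract is a sequence feature that the name rule did not use. It was searched for at the annotated start of RefSeq promoters (GRCh38.p14), on the strand that reads as the mRNA does. The tract was taken as a C at the start followed by at least 4 bases that are each C or T. Promoters were at hand for 63 of the 80 genes, and 45 of the 63 (71.4%) had the tract at a start, against 5.14% of the 27305 genes with a promoter in the table. The windows below run from 15 bases before the start to 15 bases from it on, 5′ to 3′, with the tract in capitals. The first 6 are genes with high ratios and the last 3 are genes without the tract, among them the paralogs RPS27L and RPL10L.
RPS21 (chr20:62387088-62387117, plus strand): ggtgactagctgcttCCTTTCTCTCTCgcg
RPS18 (chr6:33272060-33272089, plus strand): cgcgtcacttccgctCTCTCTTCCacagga
RPL38 (chr17:74203663-74203692, plus strand): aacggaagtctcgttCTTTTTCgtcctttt
RPL35A (chr3:197950175-197950204, plus strand): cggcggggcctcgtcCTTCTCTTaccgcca
RPLP0 (chr12:120201097-120201126, minus strand): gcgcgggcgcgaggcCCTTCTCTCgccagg
RPL13 (chr16:89560667-89560696, plus strand): ttgcggggccgcttcCTTTCCgctcggctg
RPS27L (chr15:63157463-63157492, minus strand): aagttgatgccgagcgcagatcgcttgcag
RPL10L (chr14:46651767-46651796, minus strand): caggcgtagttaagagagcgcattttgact
RPS4X (chrX:72277234-72277263, minus strand): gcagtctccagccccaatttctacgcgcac
The median of the mean log2 ratio was 0.22 over the 45 genes with the tract and 0.17 over the 18 with a promoter and no tract.

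The first question was whether the clones differed in ribosomal protein mRNA. The median log2 ratio of the 80 genes was 0.25 in FBS-free medium, 0.20 with IGF1 and 0.25 with IGF1 and OSI906, but on the scanner software's own processed signals it was -0.03, 0.02 and 0.01. The genes ranged from -0.53 to 1.16 in FBS-free medium, from -0.63 to 1.09 with IGF1 and from -0.42 to 1.15 with IGF1 and OSI906. A ratio above 0 was found for 67, 59 and 66 of the 80 genes on these arrays. Of all probes it was found for 28638 of 58197, 29384 of 58181 and 28278 of 58198. On every array, 56 genes lay above 0 and 10 below 0, for which no share over all probes was taken. The SD of the genes' differences between 2 arrays, divided by the square root of 2, was 0.0958 for the FBS-free and OSI906 arrays, 0.143 for the FBS-free and IGF1 arrays and 0.124 for the IGF1 and OSI906 arrays, and it holds responses to treatment as well as noise.

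The ratios were called by size, past 0.5 on the log2 scale, with no p-value. In FBS-free medium 14 of the 80 genes lay above 0.5, beside 2.43% of all probes, and 2 below -0.5, beside 2.26% of all probes. With IGF1, 11 lay above 0.5 (2.84% of all probes) and 1 below -0.5 (1.79%). With IGF1 and OSI906, 15 lay above 0.5 (2.24%) and none below -0.5 (2%). In all, 19 genes passed 0.5 in size on at least 1 array (8.13% of all probes) and 9 lay above 0.5 on every array (1.03%). These 9 were RPS2, RPS21, RPS18 and RPS10 of the small subunit and RPL38, RPL23, RPL13, RPL32 and RPLP0 of the large one. The difference over the 3 arrays was also tested with limma, with Benjamini-Hochberg adjustment over 58174 probes. Of the 80 genes, 38 passed, 37 higher and 1 lower in U87WT, against 8.43% of all probes (4.28% higher and 4.15% lower). The 3 arrays of this test are different conditions, so responses to IGF1 and OSI906 add to its error. The count fell to 6 without the FBS-free array and to 2 without the OSI906 array, and was 41 without the IGF1 array. Calls over all probes went from 4905 to 1159, 232 and 6033 in these fits. The count was 5 on the ratios that the authors deposited, where 785 of all probes passed.

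Most ribosomal protein probes were very bright, and the share of calls rose with brightness for other genes too. Between the quartiles of the members' brightness (14.9 and 15.8) lay 127 probes of other genes, of which 39.4% passed limma, 37.8% higher and 1.57% lower in U87WT. The shares of these 127 probes above 0.5 were 18.9% in FBS-free medium, 19.7% with IGF1 and 26.8% with IGF1 and OSI906, beside 17.5%, 13.8% and 18.8% of the ribosomal protein genes. Below -0.5 lay 2.36%, 1.57% and 1.57% of them. On every array 12.6% lay above 0.5, and 34.6% passed 0.5 in size on at least 1 array. Their median log2 ratios were 0.24, 0.27 and 0.30, beside 0.25, 0.20 and 0.25 for the ribosomal protein genes. Above 0 lay 103, 98 and 106 of the 127 probes, beside 67, 59 and 66 of the 80 genes.

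**Figure D1:**
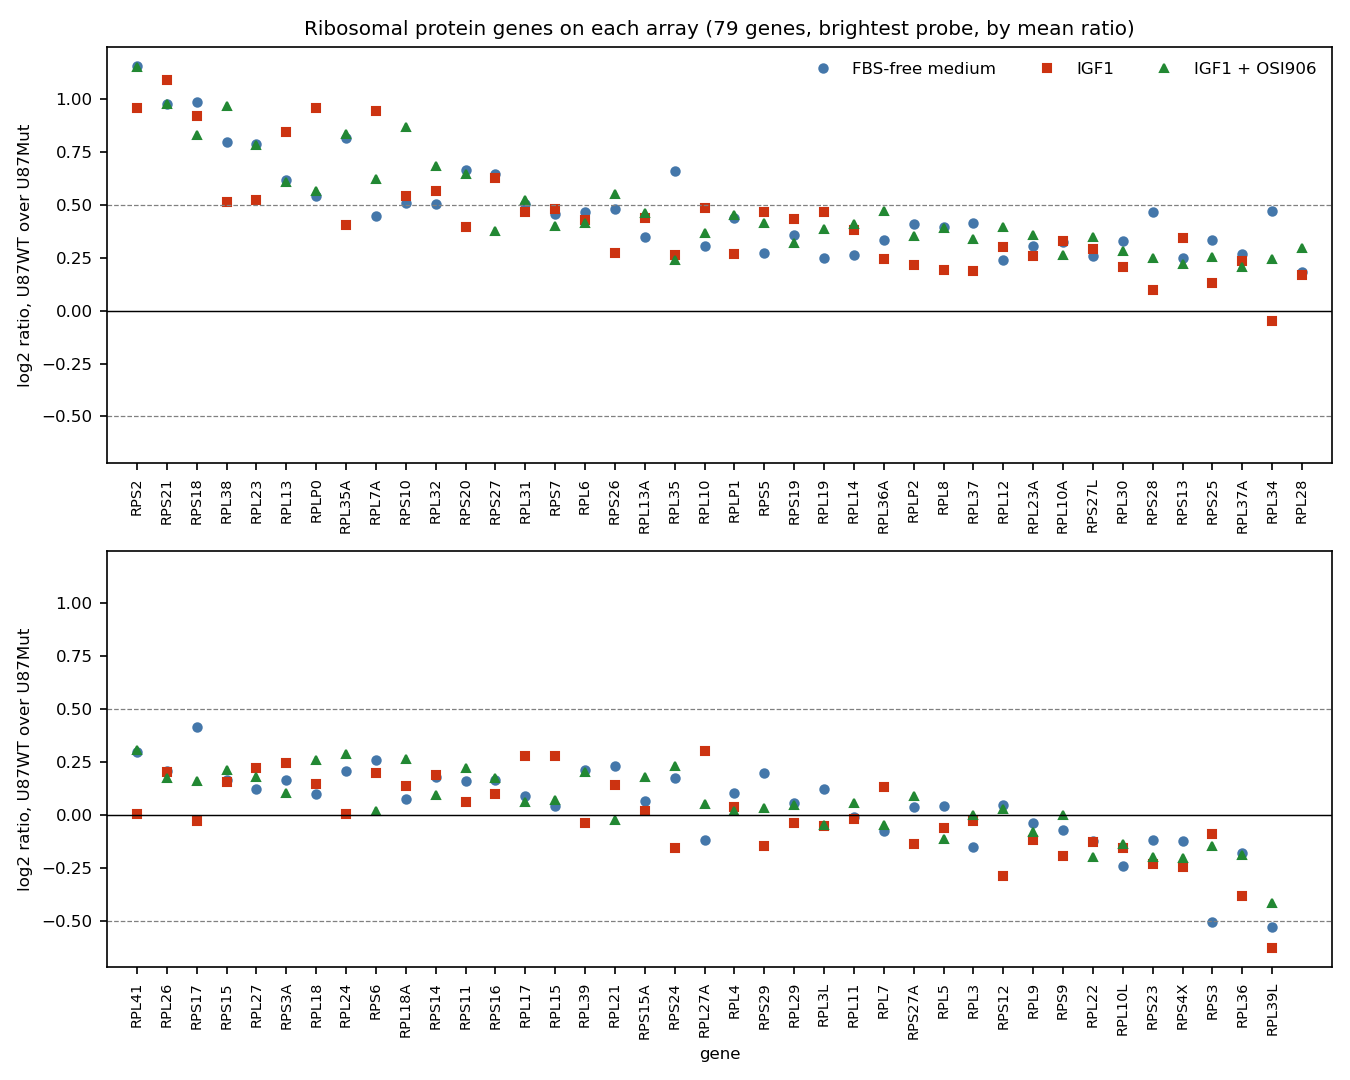
Log2 ratio of U87WT over U87Mut for 79 ribosomal protein genes (x axis, ordered by the mean over the arrays), with 1 point per array and dashed lines at 0.5 and -0.5. The points of RPS2, RPS21 and RPS18 sit highest and those of RPL39L lowest, and most genes lie above 0 on every array in this normalization, while on the scanner software's processed signals the median was near 0.

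Of the 30 proteins of the small subunit, 12 passed limma, all higher in U87WT, beside 4.28% of all probes and 37.8% of the 127 probes of like brightness. After centring by brightness, described below, 3 passed as higher and 3 as lower. RPS2, which lies at the mRNA entry side of the subunit, showed log2 ratios of 1.16 in FBS-free medium, 0.96 with IGF1 and 1.15 with IGF1 and OSI906 (mean 1.09 ± 0.113, SD over 3 arrays, limma adjusted p = 0.00364). RPS21, a small protein found only in eukaryotic ribosomes, had 0.98, 1.09 and 0.97 (1.01 ± 0.067, adjusted p = 0.00319). RPS18, a protein of the head of the subunit, had 0.98, 0.92 and 0.83 (0.91 ± 0.0771, adjusted p = 0.00356). These were the 3 highest genes of the set, and each was high on every array, with no array standing apart.

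RPS10, at the mRNA entry channel and one of the genes mutated in Diamond-Blackfan anemia, had log2 ratios of 0.51, 0.54 and 0.87. RPS20 had 0.66, 0.40 and 0.64, lowest on the IGF1 array. RPS27, a zinc finger protein, had 0.65, 0.62 and 0.38, lowest on the OSI906 array. All 3 passed limma. RPS26 lay above 0.5 only on the OSI906 array (0.55) and passed limma, with 0.48 in FBS-free medium and 0.27 with IGF1. RPS7 passed with ratios between 0.40 and 0.48. RPS19, the gene most often mutated in Diamond-Blackfan anemia, passed with ratios from 0.32 to 0.43.

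At the other end of the small subunit, RPS3, a protein of the mRNA entry channel that also acts in DNA repair, had -0.51 in FBS-free medium, -0.09 with IGF1 and -0.15 with IGF1 and OSI906, and did not pass limma (adjusted p = 0.224). RPS4X had -0.12, -0.24 and -0.20 (adjusted p = 0.0624). RPS23, a protein of the decoding center, had -0.12, -0.23 and -0.20 (adjusted p = 0.0678). RPS12 and RPS9 did not pass either, and RPS9 had -0.07, -0.19 and 0.00. RPS4X and RPS23 lay below 0 on every array but within 0.25 of it. The second probe of RPS23, at a brightness of 11.3, had a mean ratio of 0.06. RPS6, the classic substrate of the S6 kinases downstream of mTORC1, had 0.26, 0.20 and 0.02 and did not pass (adjusted p = 0.221).

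Of the 43 proteins of the large subunit outside the stalk and the paralogs, 21 passed limma, all higher in U87WT, beside the 37.8% higher among the 127 probes of like brightness. After centring by brightness 1 passed as higher and 5 as lower. RPL38, which helps translation of Hox mRNAs in mouse embryos, had log2 ratios of 0.80, 0.51 and 0.97 (0.76 ± 0.230, SD over 3 arrays, limma adjusted p = 0.0169). RPL23, an inhibitor of MDM2, had 0.79, 0.52 and 0.78. RPL13 had 0.62, 0.84 and 0.61. RPL35A had 0.81, 0.40 and 0.83, and RPL7A had 0.45, 0.94 and 0.62. RPL32 had 0.51, 0.56 and 0.68. All 6 passed. They differed in where the IGF1 array lay, below both others for RPL38, RPL23 and RPL35A and above both for RPL13 and RPL7A.

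RPL31 passed with 0.50, 0.47 and 0.52, and RPL6 with 0.47, 0.43 and 0.41, both with an SD over the arrays under 0.03. RPL35 lay above 0.5 in FBS-free medium alone (0.66, then 0.26 and 0.24) and did not pass (adjusted p = 0.0937). RPL13A, which as a free protein silences inflammatory mRNAs, had 0.35, 0.44 and 0.46 and passed. Its spot on the IGF1 array was marked as not uniform in the background. RPL10, RPL10A, RPL14 and RPL23A also passed, with ratios from 0.26 to 0.49.

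RPL5 and RPL11, which with 5S RNA form the particle that binds MDM2 when ribosome assembly is disturbed, lay close to 0 by their brightest probes. RPL5 had 0.04, -0.06 and -0.11 (adjusted p = 0.654) and RPL11 had -0.01, -0.02 and 0.05 (adjusted p = 0.938). Of 4 probes of RPL5 the brightest was the highest, and the mean ratio was -0.19 on the next brightest and -0.33 on the lowest. RPL22, which has roles in lymphocyte development, had -0.12, -0.13 and -0.20 (adjusted p = 0.0902). RPL36 was the lowest protein of the large subunit with -0.18, -0.38 and -0.19 (adjusted p = 0.0676). RPL9 (-0.04, -0.12 and -0.08) was below 0 on every array too. None of these 5 passed the test.

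All 3 stalk proteins passed limma, higher in U87WT. RPLP0, the base of the stalk and a common reference gene in quantitative PCR, had 0.54 in FBS-free medium, 0.96 with IGF1 and 0.56 with IGF1 and OSI906 (0.69 ± 0.233, SD over 3 arrays, adjusted p = 0.0216). RPLP1 had 0.44, 0.27 and 0.45 and RPLP2 had 0.41, 0.22 and 0.35. The IGF1 array was the highest for RPLP0 on this probe and the lowest for its partners. On the second probe of RPLP0, also bright, the IGF1 array lay between the others. After centring by brightness none of the 3 passed.

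The 4 paralogs, copies that replace a ribosomal protein in some tissues, did not move one way. RPL39L, the testis paralog of RPL39, had -0.53 in FBS-free medium, -0.63 with IGF1 and -0.42 with IGF1 and OSI906 (-0.53 ± 0.108, SD over 3 arrays, limma adjusted p = 0.0108). Among the brightest probes of the 80 genes, only that of RPL39L passed as lower in U87WT. Of all 159 probes of these genes, 44 passed as higher and 9 as lower, beside 4.28% and 4.15% of all probes. The probe of RPL39L was dim for the set, at a brightness of 7.98. RPL39 itself had 0.21, -0.04 and 0.20. RPS27L, a p53 target and paralog of RPS27, had 0.26, 0.29 and 0.35 and passed as higher. RPL10L, another testis paralog, had -0.24, -0.16 and -0.14 (adjusted p = 0.0671). RPL3L, which replaces RPL3 in heart and skeletal muscle, had a brightness of only 6.19 and ratios of 0.12, -0.05 and -0.05.

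The ratios were next set against the brightness of the probes. Over the 80 genes the ratio rose with brightness on every array, with a Spearman correlation across genes of 0.776 in FBS-free medium, 0.717 with IGF1 and 0.718 with IGF1 and OSI906. Genes are not independent replicates, and these points share their array and its normalization, so no p-value is given. Of the 159 probes, the 10 with a brightness from 12 to 13 had medians of -0.20, -0.15 and -0.17 on the 3 arrays. Probes of other genes had -0.05, -0.02 and -0.03. The 16 from 13 to 14 had -0.08, -0.15 and -0.11 against 0.00, -0.02 and 0.01, so these dimmer ribosomal protein probes lay lower than the others. Those from 14 to 15 had medians of 0.05, -0.06 and 0.04, and probes of other genes had 0.08, 0.02 and 0.04. From 15 to 16 the medians were 0.26, 0.23 and 0.26 for ribosomal protein probes and 0.29, 0.33 and 0.35 for the others. Above 16 they were 0.63, 0.57 and 0.61 against 0.59, 0.62 and 0.68.

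**Figure D2:**
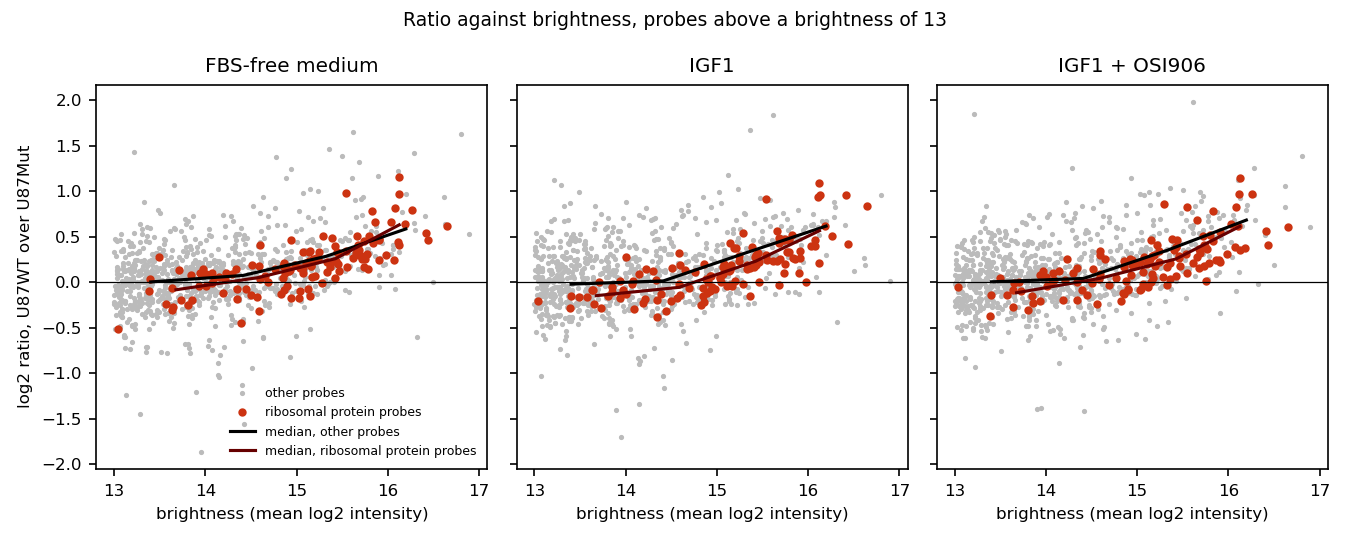
Log2 ratio of U87WT over U87Mut against brightness (mean log2 intensity of both channels) on each array for probes with a brightness above 13, with ribosomal protein probes in red, other probes in grey and a line through the medians by brightness for each. Both lines climb to about 0.6 on all 3 arrays in this normalization. At a brightness from 13 to 14 the ribosomal protein line starts lower, at -0.08, -0.15 and -0.11 against 0.00, -0.02 and 0.01.

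The same gene could be read by probes of different brightness. For 44 genes with at least 2 probes, the brightest had the higher mean log2 ratio in 38, by a median of 0.19 (from -0.24 to 1.07). The mean ratio was above 0.5 for 9 of the brightest probes and for none of the next brightest. RPS2 had 1.16, 0.96 and 1.15 by its brightest probe, 0.15, 0.00 and -0.08 by the next and -0.25, -0.15 and -0.30 by the last. RPS18 had 0.16, 0.17 and 0.11 by its next probe and RPL13 had -0.20, -0.29 and -0.09 by its other probe. RPLP0 held above 0 on both probes, with 0.31, 0.33 and 0.36 on the second. RPS10 was between -0.01 and 0.12 on its other 3 probes. RPS21, RPL38, RPL35A and RPL7A had 1 probe each, so no second reading exists for them. Ribosomal protein genes have many processed pseudogenes, and a probe cannot tell a gene from a near-identical copy.

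**Figure D3:**
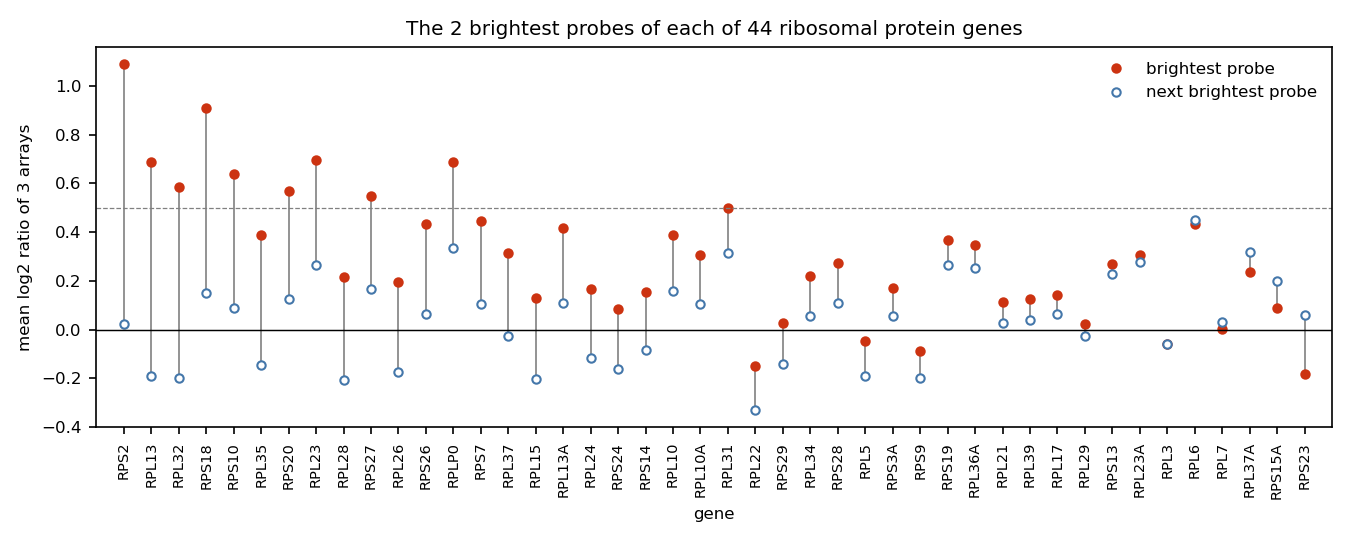
Mean log2 ratio of U87WT over U87Mut over 3 arrays (y axis) for the brightest (red) and next brightest (open blue) probe of each of 44 ribosomal protein genes (x axis), ordered by their difference. The red point lies above the blue one in 38 genes, most widely for RPS2 with 1.09 against 0.02, and no blue point lies above the dashed line at 0.5.

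To take brightness into account, the running median of the 101 probes of other genes nearest in brightness was taken from each ratio on each array. This alternative was chosen after the data were seen. For the brightest probes 1 constant was taken on each array, the median of the 101 brightest probes of other genes. RPS2 and RPS21, both at a brightness of 16.1, were among them and so were not centred at their own brightness. Probes of other genes with a brightness above 16 had a median mean ratio of 0.62. The medians of the 80 genes were then -0.02, -0.08 and -0.07, with 39, 28 and 35 genes above 0 and 41, 52 and 45 below 0. Of the 80 genes, 13 passed limma on the centred ratios, against 8.19% of all probes and 24.4% of the 127 other probes of like brightness. As higher in U87WT 4 genes passed (4.2% of all probes and 13.4% of the 127), RPS2 (mean centred ratio 0.68), RPS21 (0.60), RPS18 (0.52) and RPL37 (0.26). As lower 9 passed (3.99% and 11%), RPL39L (-0.55), RPS4X (-0.35), RPL11 (-0.30), RPL3 (-0.29), RPL36 (-0.27), RPS16 (-0.27), RPL9 (-0.24), RPL29 (-0.21) and RPS23 (-0.20). RPL37, RPL11, RPL3, RPS16 and RPL29 were named after their values were seen. Of all 159 probes of the set, 4 passed as higher and 18 as lower on the centred ratios. The median difference between the 2 brightest probes of a gene was 0.04 after the centring. The next probes of RPS2, RPS18, RPL37 and RPS23 lay on the other side of 0, with centred means of -0.14, -0.03, -0.02 and 0.06. Those of RPL3 and RPL29 kept the side, with -0.24 and -0.13.

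The second question was whether IGF1 changed the clone ratio. The difference of the IGF1 array from the mean of the other arrays had a median of -0.04 over the 80 genes, and no gene passed 0.5 in size, beside 2.31% of all probes and 7.09% of the 127 probes of like brightness. The IGF1 array was above both others for 19 genes and below both for 39, for which no share over all probes was taken. Its difference from their mean lay below 0 for 50 of the 80 genes and for 67 of the 127 probes. The highest differences were those of RPL7A (0.41), RPLP0 (0.40), RPL27A (0.34), RPS3 (0.24) and RPL13 (0.23). The second probes of RPLP0 and RPL13 did not share this, with 0.00 and -0.14. RPL27A was read by a dim probe (brightness 6.62), with ratios of -0.12, 0.30 and 0.05. The lowest were those of RPL35A (-0.42), RPL34 (-0.41), RPL38 (-0.37), RPS24 (-0.36) and RPS12 (-0.33). The second probe of RPL34 gave -0.33 and that of RPS24 gave 0.10. RPL34 had 0.47 in FBS-free medium, -0.05 with IGF1 and 0.24 with IGF1 and OSI906, RPS24 had 0.18, -0.15 and 0.23 and RPS12 had 0.05, -0.29 and 0.03. By these brightest probes the ratio was on the other side of 0 on the IGF1 array.

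Each clone was also followed by its own channel, as log2 normalized intensity. From FBS-free medium to IGF1, 71 of the 80 genes had a change below 0 in U87WT, beside 86 of the 127 probes of like brightness. Of all probes 28815 of 58177 did. The median change of the 80 genes was -0.12 in U87WT, where none passed 0.5 in size (2.39% of all probes). In U87Mut it was -0.05, and 3 genes lay below -0.5, RPL13 (-0.64), RPLP0 (-0.63) and RPL7A (-0.56), beside 1.04% of all probes past 0.5 in size and 3.94% of the 127 probes of like brightness below -0.5. The medians of these 127 probes were -0.06 in U87WT and -0.08 in U87Mut. In U87WT the same 3 genes had -0.42, -0.22 and -0.07. From IGF1 to IGF1 with OSI906, the median change was 0.13 in U87WT, where no gene passed 0.5 in size (3.51% of all probes), and 0.04 in U87Mut, and RPL13 (0.65) and RPLP0 (0.54) lay above 0.5 in U87Mut, beside 1.22% of all probes past 0.5 in size. The medians of the 127 probes were 0.06 and 0.04. The IGF1 array enters both steps, so opposite signs of the steps are not separate observations.

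The value on the IGF1 array depended on how its background was fitted. Fitting normexp on all spots, and not leaving out the 572 spots that the scanner marks as not uniform on that array, raised the fitted SD of its Cy5 background from 1.32 to 701. The median ratio of the 80 genes on the IGF1 array was then 0.75, and 35 genes lay above 0.5 in the difference from the other arrays, beside 0.731% of all probes and 52% of the 127 probes of like brightness. In the log2 ratios that the authors deposited the median on the IGF1 array was 0.90 and 56 genes lay above 0.5 in that difference, beside 1.43% of all probes and 77.2% of the 127 probes. The medians in FBS-free medium and with OSI906 were 0.26 and 0.25 in the deposited ratios, close to those given above. In both versions the other probes of like brightness had a difference as high as the ribosomal protein genes, with medians of 0.51 and 0.65 against 0.45 and 0.59.

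**Figure D4:**
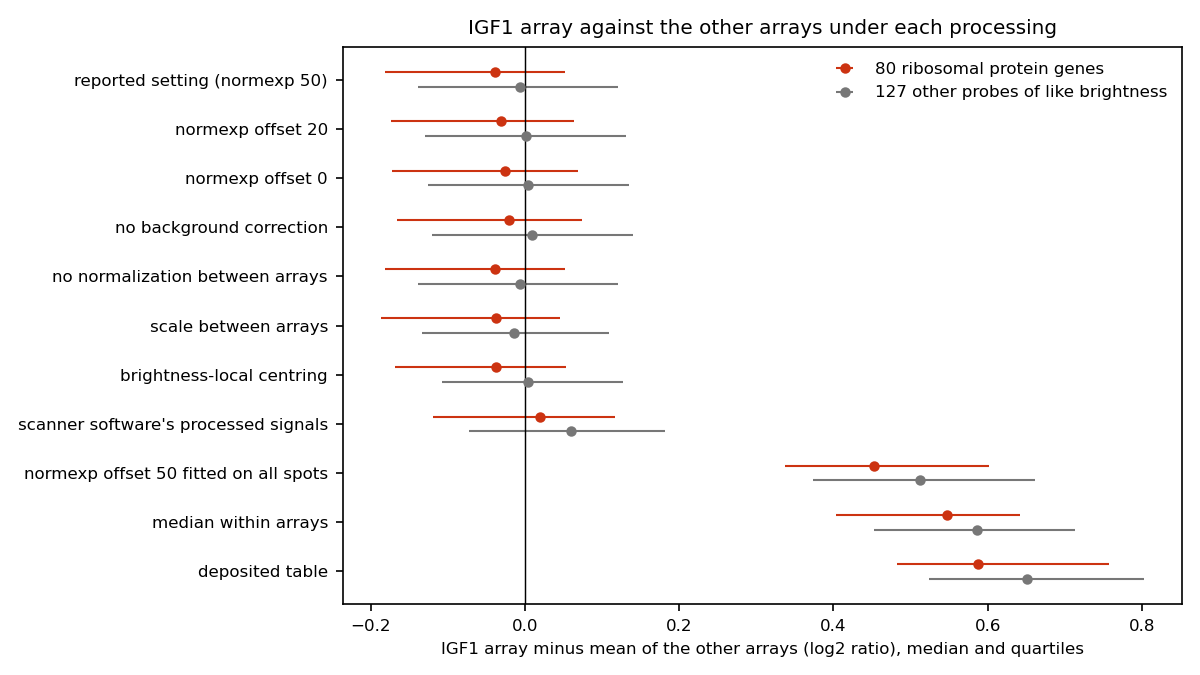
Difference of the log2 ratio on the IGF1 array from the mean of the other arrays (x axis), as the median (point) and quartiles (bar) of 80 ribosomal protein genes in red and 127 other probes of like brightness in grey, under each processing (y axis). The points lie near 0 in 8 versions and between 0.45 and 0.65 in the other 3, and red and grey move together. The version with no normalization between arrays has the same values as the reported setting.

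The rest of the translation machinery was read from gene lists. Among ribosomal genes that the name rule leaves out, RPL22L1, the paralog of RPL22, passed limma as higher in U87WT with log2 ratios of 0.41, 0.43 and 0.54, but not after centring by brightness (adjusted p = 0.0659). Passing as lower were RPL26L1 (-0.48, -0.57 and -0.53), RPL7L1 (-0.37, -0.40 and -0.24) and RACK1 (-0.35, -0.23 and -0.41), a scaffold on the head of the small subunit. FAU and RPL36AL did not pass. Of 20 genes of translation factors and other TOP mRNAs with a probe, 19 had a value on every array. None of these passed as higher and 2 passed as lower, beside 4.28% and 4.15% of all probes. In the deposited ratios 1 passed as higher and none as lower, and the median on the IGF1 array was 0.35 in place of -0.07. EEF2, the factor that moves the ribosome along the mRNA, was one of the 2 that passed as lower in the reported setting, with -0.72, -0.40 and -0.60. BTF3 was the other, between -0.27 and -0.34. EIF4A2 had -0.06, 0.17 and -0.61, EIF4B had 0.64, 0.12 and 0.42 and VIM had 1.15, 0.29 and 0.77, and these 3 did not pass.

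Genes of ribosome biogenesis, which make ribosomal RNA and assemble the subunits in the nucleolus, were mostly lower in U87WT. Their medians were below 0 on every array under 10 of 11 settings. Under the other, median normalization within arrays, the median on the IGF1 array was 0.13. Among these settings, no normalization between arrays gave the same ratios as the reported one. Of 35 genes, 20 passed limma as lower and 1 as higher, beside 4.15% and 4.28% of all probes. On every array 26 lay below 0, for which no share over all probes was taken. Nor was the list set against probes of like brightness. The medians were -0.40 in FBS-free medium, -0.30 with IGF1 and -0.26 with IGF1 and OSI906 as reported here. NCL, the nucleolar protein nucleolin, had -0.77, -0.68 and -0.92. RRS1, an assembly factor of the large subunit, had -0.69, -0.80 and -0.63, and LYAR had -0.75, -0.64 and -0.61. NOLC1 had -0.55, -0.67 and -0.77. DKC1, the pseudouridine synthase of H/ACA particles, had -0.62, -0.55 and -0.46. NOP2, an rRNA methyltransferase, had -0.69, -0.45 and -0.65, and the helicase DDX21 had -0.81, -0.35 and -1.08. These 7 all passed.

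Also past 0.5 in size and passing as lower were BYSL, UTP4 and POLR1E and POLR1C, subunits of RNA polymerase I. RRN3, NOP58 and WDR12 passed 0.5 on 1 array each and did not pass limma. TSR1, an assembly factor of the small subunit, was the gene that passed as higher, with 0.37, 0.70 and 0.73, and its probe had a brightness of 15.8. The median brightness of the list was 9.87. After the centring by brightness 17 genes passed as lower and none as higher, beside 3.99% and 4.2% of all probes. Over the 11 settings the number that passed as lower ranged from 0, under median normalization, an offset of 0 and the scanner software's signals, to 20.

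Genes of mTORC1 signaling and translation control moved both ways. Of 20 genes, 3 passed limma as higher (RPS6KB2, MLST8 and EEF2K) and 3 as lower (DDIT4, SESN2 and RPTOR), beside 4.28% and 4.15% of all probes. None passed under 5 of the 11 settings, which were normexp on all spots, an offset of 0, the scanner software's signals, the deposited ratios and median normalization. DDIT4, a stress-induced inhibitor of mTORC1, showed log2 ratios of -1.46 in FBS-free medium, -1.29 with IGF1 and -0.55 with IGF1 and OSI906. SESN2, the leucine sensor upstream of mTORC1, had -1.16, -0.96 and -0.55. In both, the OSI906 array was the closest to 0. EIF4EBP1, the translation repressor that mTORC1 inactivates, had -0.78, -0.02 and -0.40, EIF4E had -0.22, -0.20 and -0.53, EIF4EBP2 had 0.13, -0.53 and -0.05 and RPS6KA3 had 0.07, 0.64 and 0.46, and these 4 did not pass. RPS6KB2, MLST8, EEF2K and RPTOR stayed within 0.5 on every array and were named after their values were seen.

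**Figure D5:**
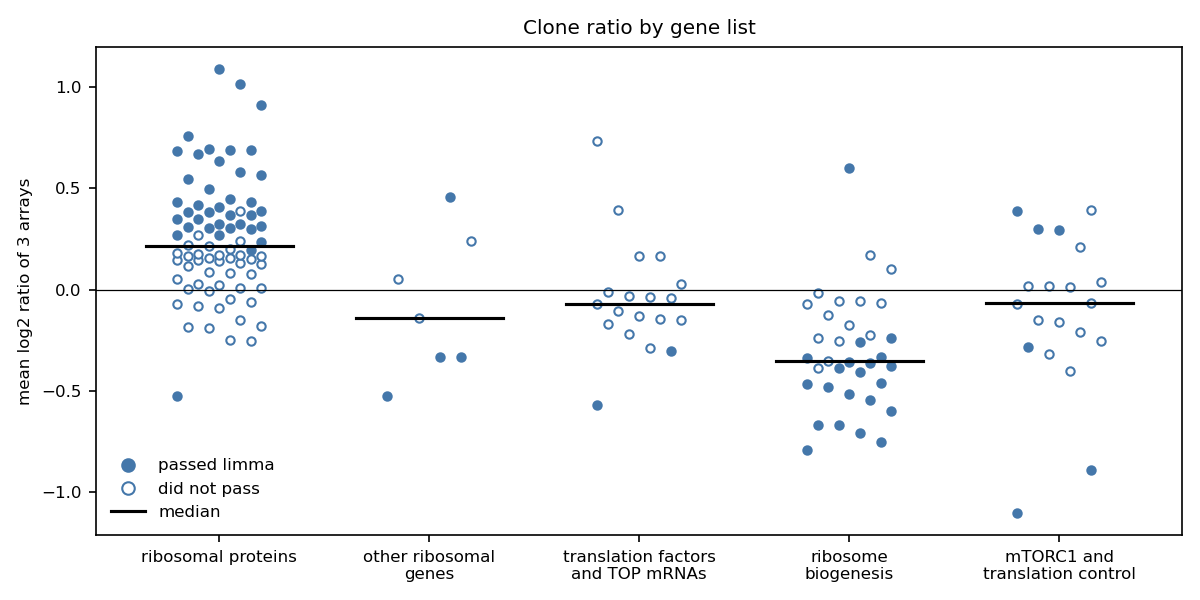
Mean log2 ratio of U87WT over U87Mut over 3 arrays (y axis) of each gene in 5 lists (x axis), filled where the gene passed limma with Benjamini-Hochberg adjustment and open where it did not, with a bar at the median. Ribosomal proteins lie mostly above 0 in this normalization (median 0.22, but near 0 after centring by brightness) and ribosome biogenesis genes mostly below 0 (median -0.35, with the IGF1 array above 0 under median normalization).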

How the data were processed

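Per the file headers, the deposited intensities are median spot and local background signals of each channel from Agilent Feature Extraction 12.0.3.1, not normalized, with its log10 ratio of processed signals. The authors also deposited log2 ratios made with limma. In R 4.3.3 with limma 3.58.1, background was corrected by normexp (offset 50, fitted without spots marked as not uniform), control spots were removed, arrays were normalized by loess within and Aquantile between, outlier spots were left out (95 to 117 an array) and spots of a probe averaged. No spot was saturated. Probes were named by RefSeq accession (34892 of 36770). The brightest probe stands for a gene. The limma fit (lmFit, eBayes, intercept only) had 3 arrays, and their number limits the precision. On simulated data with the 58174 probes it found 95 of 100 probes changed by 1 and 36 of 100 changed by 0.5 (log2). The simulated noise was sized from the difference of the FBS-free and OSI906 arrays, the closest pair over the 80 genes. Recovery on the real arrays may therefore be lower. The members and lists were chosen with earlier results of these data known. Named genes are the 10 highest and lowest by mean, 5 highest and lowest by IGF1 difference, those past 0.5, the 20 with the smallest p and set examples by role. In the lists, genes past 0.5 are named. Values of 2 genes are not reported here. Alternatives were other background corrections and normalizations, the deposited ratios, probe choices, leaving out each array and centring by brightness.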

Additional observations from a re-analysis of the deposited data

How the results depend on the processing

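The clones are paired within arrays, in the ratio itself, and the limma fit over the 3 arrays used this pairing. No further pairing was possible because each condition had 1 array. The number of ribosomal protein genes that passed limma was 38 and ranged from 2 to 41 when 1 array was left out. It was 6 without FBS-free medium, 41 without IGF1 and 2 without IGF1 and OSI906 (1159, 6033 and 232 over all probes). It was 3 with normexp fitted on all spots (669 over all probes), 1 with an offset of 0 (452) and 24 without background correction (4530). In the deposited ratios 5 passed (785 over all probes), and after centring by brightness 13 passed (4763). The number was 0 both on the scanner software's signals and with median normalization within arrays, where 0 of all probes passed too. The median ratio on the IGF1 array was 0.75 with normexp fitted on all spots, 0.90 in the deposited ratios and 0.98 with median normalization, which gave 0.69 on the OSI906 array. The medians were -0.0282, 0.0206 and 0.0126 on the scanner software's signals and -0.0212, -0.0759 and -0.0652 after centring. Genes past 0.5 on the IGF1 array numbered 58 (all spots), 65 (deposited), 72 (median normalization, with 57 on the OSI906 array) and 5 (centring, with 4 and 2 on the FBS-free and OSI906 arrays). They numbered 4 and 6 on the FBS-free and OSI906 arrays on the scanner software's signals, 5, 5 and 6 when all probes of each gene were averaged, and 66, 64 and 62 with a limit of 0.5 SD of each array. Of the 127 other probes of like brightness, 80.3% (all spots), 89.8% (deposited), 98.4% (median normalization) and 7.09% (centring) lay above 0.5 on the IGF1 array. For the other counts past the limit no share over other probes is given. The difference of the IGF1 array from the others had a median of 0.45 (all spots), 0.59 (deposited) and 0.55 (median normalization), with 35, 56 and 48 genes past 0.5, and 1 gene past 0.5 with an offset of 0, without background correction and on the scanner software's signals. Of the 127 probes, 52%, 77.2% and 68.5% lay above 0.5 in this difference under the first 3, and 1.57% under each of the other 3. The cause of these changes was not tested, except that normexp on all spots differs from the reported setting only in the spots fitted. The 43 ratios past 0.5 kept their sign under all 12 of these settings. Leaving out the normalization between arrays and keeping only probes well above background could not change these ratios, so these settings were no check. Nor was scaling between arrays a check of sign, because it multiplies all ratios of an array by 1 positive number. At the bright end, centring took less than 0.5 from a ratio, so a bright gene above 0.5 could not change sign under it. The other alternatives left the counts within 1.5 times. With 1 array per condition and no dye swap, no difference between arrays has a replicate error.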

Other observations

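The following 5 probes of ribosomal and other abundant non-coding RNA, picked after their values were seen, varied more between the arrays than any ribosomal protein gene. RNA28SN1, the 28S rRNA of the large subunit, showed log2 ratios of 0.94 in FBS-free medium, 0.27 with IGF1 and 1.06 with IGF1 and OSI906. RNA18SN5, the 18S rRNA of the small subunit, had -1.24, -0.02 and 0.25, and RNA5-8SN5 had 1.35, -0.80 and 0.66. RN7SK, a regulator of transcription elongation, had 1.02, -0.12 and 0.85, and RN7SL1, the RNA of the signal recognition particle, had 1.38, -0.42 and 0.50. None of these 5 passed limma. Of the probes for SNORD3B-1, a small nucleolar RNA of rRNA processing, the brighter had 0.99, 0.35 and 0.95 and passed (adjusted p = 0.0438), and the dimmer had 0.09, -0.80 and -0.36 and did not. The labelling of these RNAs depends on the primer, which is not given in the sources used here.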
